A study of Mus musculus with 3 samples.

Results

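The transcripts described here are those of *C1qa*, *C1qb* and *C1qc*, the 3 chains of the complement protein C1q, and of *C3ar1*, the receptor for the anaphylatoxin C3a. They were chosen by name, and are 4 of the 14148 genes in the count tables of CD45+ (immune) cells from the muscularis externa of the small intestine. The cells came from female WT C57BL/6J mice of 12 weeks. 1 library was made from naïve mice, 1 from mice 24 h after intestinal manipulation, a surgical handling of the gut that inflames the muscle layer, and 1 from mice 72 h after it. Each library was pooled from 3 to 4 mice and single animals cannot be told apart, so a time point cannot be told apart from its library and no test between time points was possible. The labels name no sham-operated group, so effects of anaesthesia, opening of the abdomen and handling of the gut cannot be told apart.

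C1q is the recognition unit of the classical complement pathway. It binds antibody complexes, dying cells and surfaces, and is built from equal numbers of its A, B and C chains, each from its own gene. Unlike most complement proteins, which are made in the liver, C1q is made mainly by tissue Mφs and some DCs. C3aR, encoded by *C3ar1*, is a G protein-coupled receptor on myeloid cells that is activated by C3a, the small fragment released when C3 is cleaved further down the cascade.

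The C1q genes lie side by side on the minus strand of mouse chromosome 4 (RefSeq, GRCm38.p6), in the order *C1qb* (chr4:136880126-136886200), *C1qc* (chr4:136889801-136892936) and *C1qa* (chr4:136895916-136898844). They span 18719 bp, with gaps of 3600 and 2979 bp and 0 other RefSeq genes between them. *C3ar1* lies on the minus strand of chromosome 6 (chr6:122847140-122856157). In the GENCODE annotation 0 genes overlap any of the 4. Because the C1q genes are neighbours, sequences upstream of the start sites of *C1qb* and *C1qc* are shown with that of *C3ar1*, from the RefSeq promoter table (GRCm38.p6), which matched these 3 of the 4 genes and not *C1qa*. They are written 5′ to 3′ along the gene's own strand and without bases that an annotated transcript of the gene covers. Capitals mark the letters GAGGAA or TTCCTC, the core of sites of PU.1, TGCTGA or TCAGCA, part of the site of large Maf factors, and TGANTCA, the core of AP-1 sites, searched on both strands. No capitals overlap.
C1qb upstream, chr4:136886201-136886450, minus strand: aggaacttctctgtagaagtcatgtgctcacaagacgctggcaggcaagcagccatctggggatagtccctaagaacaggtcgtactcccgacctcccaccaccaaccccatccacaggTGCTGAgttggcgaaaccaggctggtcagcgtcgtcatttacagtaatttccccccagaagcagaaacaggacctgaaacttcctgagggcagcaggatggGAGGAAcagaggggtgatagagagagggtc
C1qc upstream, chr4:136893066-136893164, minus strand: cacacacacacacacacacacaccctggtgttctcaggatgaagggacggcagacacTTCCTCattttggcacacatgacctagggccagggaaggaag
C3ar1 upstream, chr6:122856162-122856407, minus strand: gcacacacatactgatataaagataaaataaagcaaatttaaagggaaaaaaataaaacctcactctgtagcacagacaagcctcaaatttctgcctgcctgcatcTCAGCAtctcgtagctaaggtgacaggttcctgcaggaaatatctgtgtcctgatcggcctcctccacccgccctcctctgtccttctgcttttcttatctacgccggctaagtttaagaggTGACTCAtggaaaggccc
The words were searched in the whole 250 bases before each start site, of which 250 are printed for *C1qb*, 99 for *C1qc* and 246 for *C3ar1*. There *C1qb* held 1 PU.1 core and 1 Maf word, *C1qc* 1 PU.1 core, and *C3ar1* 1 Maf word and 1 AP-1 core. Of all 32851 promoter windows of 250 bases, 23.3% held the PU.1 core, 16.1% the Maf word and 6.75% the AP-1 core, so that each of these short words is common and a match is only a description.

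The tables held 4102 cells, with 652, 2211 and 1239 cells and medians of 2134.5, 4669 and 3295 UMIs per cell in the naïve, 24 h and 72 h libraries. Clustering without the complement genes gave 2259 monocyte/Mφ-like cells (138, 1547 and 574 in the same order), 394 B cell-like, 394 T cell-like, 528 neutrophil-like and 277 DC-like cells. Another 250 cells, led by *Gm12840*, *Ptgs2*, *Mmp9* and *Siglecf*, stayed unnamed. The libraries shared 3 cell barcodes in all. Markers of fibroblasts, muscle, glia and endothelium summed to at most 44.5 CPM in a library, with glial *S100b* at 0 in the naïve library. A level is given in counts per 1e+06 UMIs (CPM), with both the gene's UMIs and all UMIs added up over a group's cells, and the C1q level is the sum of the 3 chains. Intervals are at 95% and cover counting error only, not differences between mice or between cells.

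C1q and *C3ar1* transcripts were found mainly in monocyte/Mφ-like cells at every time point. These cells made up 21.2%, 70.0% and 46.3% of the naïve, 24 h and 72 h cells, and held 89.8%, 98.0% and 91.4% of all C1q UMIs and 93.9%, 98.3% and 94.0% of all *C3ar1* UMIs. Their C1q level was 14358 CPM (14025 to 14697) in the naïve library, 4342 CPM (4299.5 to 4386) at 24 h and 10152 CPM (10040 to 10265) at 72 h. *C3ar1* in the same cells was at 315 CPM (267 to 369), 307 CPM (296 to 319) and 288 CPM (269 to 307). C1q therefore differed by a large factor between the 3 libraries, while the intervals of *C3ar1* overlapped.

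Summed over all cells of a library, the order was another one. C1q was at 4221 CPM in the naïve library, 3790 CPM at 24 h and 6524 CPM at 72 h. *C3ar1* was at 88.5 CPM (75.5 to 103), 267 CPM (258 to 277) and 179.7 CPM (168 to 192). *C3ar1* thus had the order of the shares of monocyte/Mφ-like cells given above, while C1q was lowest at 24 h, where that share was highest. Whole-library levels combine the share of these cells with the level within them, and only the latter is compared further.

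**Figure D1:**
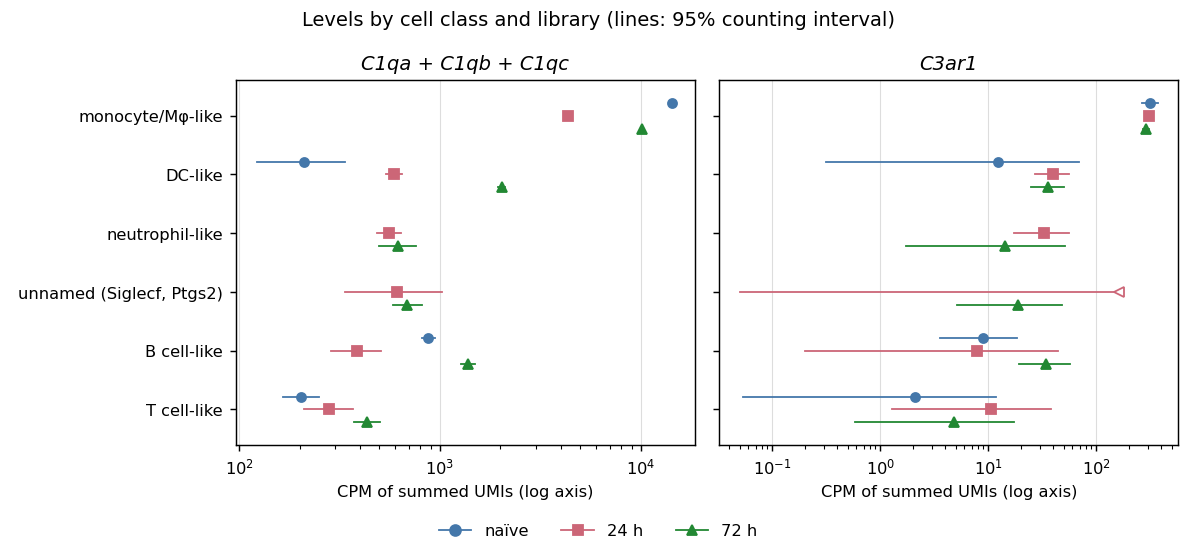
CPM of the summed C1q chains (left) and of *C3ar1* (right) in each cell class with at least 20 cells in a library, on log axes, with naïve, 24 h and 72 h libraries as circles, squares and triangles and lines for the 95% counting interval. Monocyte/Mφ-like cells lie above every other class for both, and the open triangle marks the upper bound where 0 UMIs were counted.

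B and T cells, which do not make C1q, gave a gauge of the RNA that reaches droplets from other cells. T cell-like cells held C1q at 204 CPM (166 to 249), 281 CPM (211 to 368) and 433 CPM (373 to 501) in the naïve, 24 h and 72 h libraries. B cell-like cells held 874 CPM, 386 CPM and 1381 CPM, which is 6.09%, 8.90% and 13.6% of the level in monocyte/Mφ-like cells. The B cell value came from few cells. In the naïve library 10 of 277 B cell-like cells had 5 or more C1q UMIs and held 94.2% of the C1q UMIs of that class, up to 190 in 1 cell.

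Of those 10 cells, 8 belonged to the dividing B cell-like cluster, 6 had a UMI of the B cell gene *Cd79a*, and 10 had UMIs of at least 2 of 6 Mφ markers, against 1.50% of the other 267 cells. At 72 h, 18 of 79 B cell-like cells had 5 or more C1q UMIs, and 17 of them were in the dividing cluster, 16 had at least 2 Mφ markers and 2 had *Cd79a*. Without such cells the B cell gauge was 0.384% (0.274 to 0.524%) of the monocyte/Mφ-like level in the naïve library and 2.96% (2.34 to 3.70%) at 72 h. Over all 72 h B cell-like cells the 10 monocyte/Mφ markers summed to 2701 CPM and the 5 B cell markers to 2333 CPM. The 72 h level of this class is thus not that of B cells alone. The part of doublets or of Mφs within the dividing cluster was not tested. T cell-like cells stood at 1.42% (1.15 to 1.74%), 6.47% (4.85 to 8.47%) and 4.27% (3.67 to 4.94%) of the monocyte/Mφ-like level and are set beside the low values below. In the naïve library 1 of the 188 T cell-like cells held 66 of their 97 C1q UMIs, while at 24 h and 72 h no more than 5 and 21 UMIs were in 1 cell.

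*C3ar1* was low in the gauge, with 1, 2 and 2 UMIs in 188, 71 and 135 T cell-like cells, or 2.10, 10.6 and 4.76 CPM. B cell-like cells had 7, 1 and 15 *C3ar1* UMIs, or 8.87, 7.88 and 34.3 CPM (19.2 to 56.6 at 72 h). Neutrophil-like cells had 13 *C3ar1* UMIs in 406 cells at 24 h (32.4 CPM, 17.3 to 55.4), where the interval overlaps that of T cell-like cells (1.28 to 38.3 CPM). Their C1q, 559 CPM (488 to 637) at 24 h and 620.5 CPM (498 to 764) at 72 h, amounted to at most 5 UMIs in a cell, at a median depth of 890.5 and 1248 UMIs against 2400 and 2704 in T cell-like cells. Per cell of 1000 UMIs, a C1q UMI was seen in 45.0% of the 151 neutrophil-like cells that reach this depth at 24 h (41.9% of all 406 without thinning), and in 21.4% of 70 T cell-like cells (47.9% of 71). The C1q interval of neutrophil-like cells lay above that of T cell-like cells at 24 h and overlapped it at 72 h.

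Over time, the 3 C1q chains of monocyte/Mφ-like cells were all lower at 24 h and higher again at 72 h, but not by the same factor. *C1qa*, the A chain, was at 5269.6 CPM in the naïve library, 1284.5 CPM at 24 h and 3444 CPM at 72 h. *C1qb*, the B chain, was at 5538, 2165.5 and 4375 CPM, and *C1qc*, the C chain, at 3551, 892 and 2332.5 CPM. At 24 h *C1qa* stood at 0.244 times its naïve level (0.234 to 0.254), *C1qc* at 0.251 times (0.239 to 0.265) and *C1qb* at 0.391 times (0.376 to 0.407). The interval for *C1qb* lies apart from those of the other chains.

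From 24 h to 72 h the levels differed by a factor of 2.02 (1.98 to 2.07) in *C1qb*, 2.61 (2.53 to 2.70) in *C1qc* and 2.68 (2.61 to 2.75) in *C1qa*. At 72 h *C1qa* stood at 0.654 (0.626 to 0.683), *C1qb* at 0.790 (0.758 to 0.824) and *C1qc* at 0.657 (0.623 to 0.693) times the naïve level. The ratio for *C3ar1* was 0.976 (0.830 to 1.15) for 24 h over naïve, 0.936 (0.867 to 1.01) for 72 h over 24 h and 0.913 (0.769 to 1.09) for 72 h over naïve, with every interval including 1. With 15 and 10 principal components the ratio of 72 h over 24 h was 0.8915 (0.826 to 0.961), an interval below 1, and after subtraction of the B cell level it was 0.846. At 72 h that B cell level was 34.3 CPM, and 15.4 CPM without the B cell-like cells of 5 or more C1q UMIs. In the clustering used here, a difference in *C3ar1* within the interval of its own comparison was not detectable at this depth.

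Of the 2814 genes that reached 50 CPM in 1 of the libraries or both, 8.42% were at least 2-fold lower at 24 h than in the naïve library, the 3 C1q genes among them, and 11.5% were at least 2-fold higher, with 0 of the 4 genes. Counted from the lowest ratio, *C1qa* stood at rank 81, *C1qc* at 85, *C1qb* at 151 and *C3ar1* at 1012 of 2814. For 72 h over 24 h, 3.68% of 2690 genes were at least 2-fold higher, again with the 3 C1q genes (ranks 2643, 2595 and 2641 for *C1qa*, *C1qb* and *C1qc*), and 4.87% at least 2-fold lower, with 0 of the 4. *C1qb* was just past 2-fold, and fell short of it with 15 and 10 principal components (1.96) and after subtraction of the B cell level (1.89). The level subtracted includes the B cell-like cells of 5 or more C1q UMIs. For 72 h over naïve, 2.31% of 2637 genes were at least 2-fold higher and 4.06% lower, with 0 of the 4 genes in either set. Since 1 library stands for each time point, these shares describe the libraries.

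Monocyte/Mφ-like cells of the 3 libraries belonged to different clusters. Named from markers that the study had chosen on these same samples, the largest named clusters were Cx3cr1+ Mφ-like (70 of 138 cells) and Cd206+ Mφ-like (29) in the naïve library, Fabp5+ Mo/Mφ-like (408 of 1547) and Ly6c+ monocyte-like (326) at 24 h, and Cd206+ Mφ-like (252 of 574) and Timp2+ Mφ-like (128) at 72 h. The 5 clusters below the naming rule are given by their leading genes, as the *H2-DMb1*, *Tppp3*, *Cxcl3* and *Cd79a* clusters and a shallow cluster with a median of 2159 UMIs per cell. At 24 h these held 21 (*Cd79a*), 39 (*Cxcl3*), 209 (*H2-DMb1*), 250 (shallow) and 288 (*Tppp3*) cells, more together than the named clusters. The *Cd79a* cluster was led by lymphocyte genes (*Cd79a*, *Ebf1*, *Ms4a1*, *Ccl5*), so that its level may not be that of a monocyte/Mφ state alone. Leading genes were taken against the other monocyte/Mφ-like cells, so that markers shared by these cells cannot lead a cluster. Without it the C1q ratios of monocyte/Mφ-like cells were 0.296 (0.288 to 0.304) for 24 h over naïve, 2.34 (2.30 to 2.37) for 72 h over 24 h and 0.692 (0.674 to 0.711) for 72 h over naïve. A cluster that comes mostly from 1 library may be that library and not a type.

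C1q was highest in Cx3cr1+ and Cd206+ Mφ-like cells. The former carry the fractalkine receptor and the latter the mannose receptor, both found on Mφs that reside in tissue. The naïve level was 20186 CPM (19592 to 20793) in Cx3cr1+ Mφ-like cells, and Cd206+ Mφ-like cells were at 14256 CPM (13535 to 15006.5) in the naïve library and 12615 CPM (12425 to 12807) at 72 h. Timp2+ Mφ-like cells were at 9444 CPM (9204.5 to 9688) at 72 h, and the *H2-DMb1* cluster, led by MHC class II genes, at 8413 CPM (8166 to 8665). At 24 h the *H2-DMb1* cluster was at 5448 CPM (5329 to 5568) and Fabp5+ Mo/Mφ-like cells at 5136 CPM (5054 to 5219). The intervals of neighbours in this order did not overlap.

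The lower part of the order at 24 h was closer together. The shallow cluster was at 3828 CPM (3673 to 3987), the *Tppp3* cluster at 3501 CPM (3406 to 3598), Ly6c+ monocyte-like cells at 3322.5 CPM (3246 to 3400), the *Cd79a* cluster of lymphocyte genes at 3139 CPM (2862 to 3435) and the *Cxcl3* cluster at 1719 CPM (1534 to 1920). The *Cxcl3* cluster of 72 h was at 2231 CPM (1916 to 2582), overlapping its own interval of 24 h. Ly6c+ monocyte-like cells and the *Cd79a* cluster did not differ beyond counting error (ratio 1.06, 0.964 to 1.16). All of these levels were above the 281 CPM of T cell-like cells in the same library, Ly6c+ monocyte-like cells by 11.8-fold (9.03 to 15.8).

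*C3ar1* spanned a narrower range across the same clusters. It was at 378 CPM (301 to 470) in naïve Cx3cr1+ Mφ-like cells, 377 CPM (355 to 400) in Fabp5+ Mo/Mφ-like cells, 375 CPM (343 to 409) in Cd206+ Mφ-like cells of 72 h and 302.5 CPM (206 to 429) in those of the naïve library, with overlapping intervals. Timp2+ Mφ-like cells of 72 h were at 289 CPM (248 to 334), Ly6c+ monocyte-like cells of 24 h at 285 CPM (263 to 308) and the *H2-DMb1* cluster at 215 CPM (192 to 240) at 24 h and 195 CPM (159 to 237) at 72 h. The *Tppp3* cluster was at 326 CPM (298 to 357), the shallow cluster at 274 CPM (234 to 319), the *Cxcl3* cluster at 208 CPM (147 to 285) and the *Cd79a* cluster at 166 CPM (107 to 245), all at 24 h. Fabp5+ Mo/Mφ-like cells and the *H2-DMb1* cluster thus stood next to each other for C1q (ratio 0.943, 0.918 to 0.969) and apart for *C3ar1* (ratio 1.75, 1.54 to 1.99).

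The largest contrast fixed for comparison was that of naïve Cx3cr1+ Mφ-like cells with Ly6c+ monocyte-like cells of 24 h. The ratio was 6.08 (5.85 to 6.31) for C1q, with 4.08 (3.85 to 4.33) in *C1qb*, 7.82 (7.23 to 8.45) in *C1qc* and 8.87 (8.30 to 9.48) in *C1qa*. For *C3ar1* it was 1.33 (1.04 to 1.67). Beside these values, the naïve Cx3cr1+ Mφ-like cells also held 7113 CPM of the immunoglobulin gene *Igkc*, which led their cluster, and its part in the result was not tested. At 72 h Cd206+ over Timp2+ Mφ-like cells gave 1.34 (1.30 to 1.38) for C1q and 1.30 (1.09 to 1.55) for *C3ar1*.

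**Figure D2:**
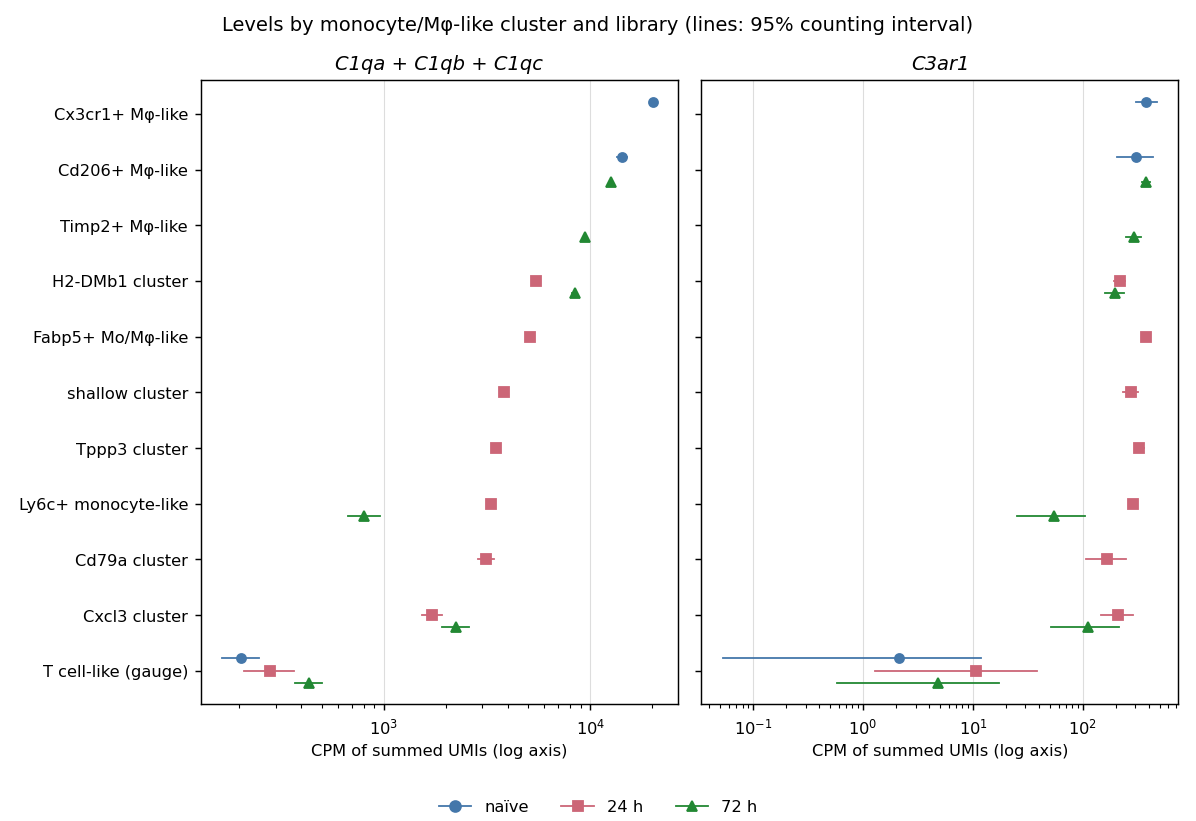
CPM of the summed C1q chains (left) and of *C3ar1* (right) in each monocyte/Mφ-like cluster with at least 20 cells in a library, on log axes, with T cell-like cells as the gauge and lines for the 95% counting interval. Among the monocyte/Mφ-like clusters, C1q runs from 20186 CPM in naïve Cx3cr1+ Mφ-like cells to 806 CPM in Ly6c+ monocyte-like cells of 72 h, while *C3ar1* lies between 55.0 and 378 CPM. T cell-like cells lie below these ranges.

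Few clusters had at least 20 cells in more than 1 library. In Cd206+ Mφ-like cells C1q was 0.885 times the naïve level at 72 h (0.839 to 0.934), a smaller gap than the 0.707 of all monocyte/Mφ-like cells, and *C3ar1* gave a ratio of 1.24 (0.862 to 1.84). In the *H2-DMb1* cluster, with 209 cells at 24 h and 72 at 72 h, C1q was 1.54 times as high at 72 h (1.49 to 1.60) and *C3ar1* gave 0.907 (0.719 to 1.14). In the *Cxcl3* cluster, with 39 and 22 cells, C1q gave 1.30 (1.07 to 1.56). Ly6c+ monocyte-like cells went the other way, from 3322.5 CPM in 326 cells at 24 h to 806 CPM (674.5 to 956) in 27 cells at 72 h, a ratio of 0.243 (0.203 to 0.288), and from 285 to 55.0 CPM (25.1 to 104) for *C3ar1*, a ratio of 0.193 (0.0878 to 0.368). Under other settings these ratios ranged from 0.123 to 0.531 for C1q and from 0.0745 to 0.2501 for *C3ar1*. The cells of 24 h and 72 h did not always share a cluster. At resolution 1.2 a Ly6c+ monocyte-like cluster held 266 cells of 24 h and 2 of 72 h and another 46 and 26, and with 15 and 10 principal components the cluster held 312 and 2.

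The 27 Ly6c+ monocyte-like cells of 72 h were close to the gauge for C1q, with 1 UMI in the median cell and a level 1.86 times that of T cell-like cells (1.48 to 2.34). 1 of them held 70 of their 132 C1q UMIs. Their *Ccr2*, the chemokine receptor of inflammatory monocytes, was at 1258 CPM against 1192 CPM at 24 h, and their *Ly6c2* was 0.550 times as high (0.471 to 0.639).

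Single cells of the 24 h library spread much more widely in C1q than those of the naïve library. The C1q level of a monocyte/Mφ-like cell had a median of 16226 CPM in the naïve library, with 10% of cells at or below 4282 CPM and 10% at or above 25837 CPM. The middle range, from 25% to 75% of cells, ran from 9658 to 21394 CPM. At 24 h the median was 2173 CPM, and the middle range ran from 511 to 5745 CPM. The 10% bounds were 208 and 10164 CPM, of which the lower is under the 281 CPM of T cell-like cells and so sets no lower limit on expression. At 72 h the median was 8163 CPM, with bounds of 649 and 18175 CPM. The tenth of cells with the most C1q UMIs held 22.3%, 43.5% and 30.2% of all C1q UMIs of these cells in the naïve, 24 h and 72 h libraries.

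The spread at 24 h was present within clusters. In Ly6c+ monocyte-like cells the median was 1019 CPM and the 10% bounds were 192 and 8790 CPM, and in Fabp5+ Mo/Mφ-like cells the median was 4081 CPM with bounds of 356 and 11461 CPM. Naïve Cx3cr1+ Mφ-like cells were the most even, with bounds of 13269 and 27736 CPM. All 3 chains were detected together in 90.6% of naïve monocyte/Mφ-like cells, 54.9% of those at 24 h and 82.2% of those at 72 h, although the median depth was lowest in the naïve library (3317, 5935 and 5313 UMIs). In T cell-like cells this share was 0.532%, 2.82% and 5.19%.

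**Figure D3:**
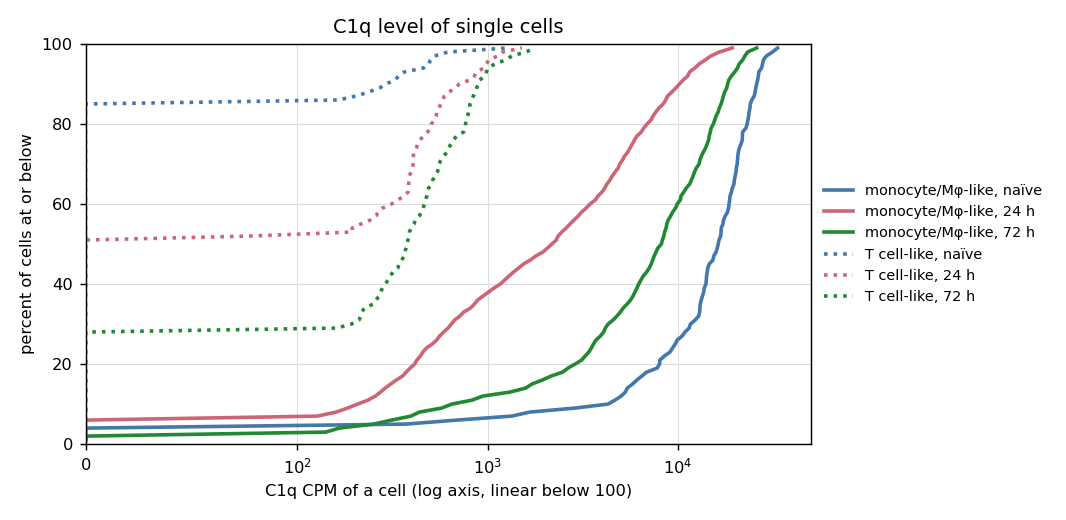
Percent of cells (vertical axis) at or below a given C1q CPM (horizontal axis, log scale, linear below 100) for monocyte/Mφ-like cells (solid) and T cell-like cells (dotted) of the naïve, 24 h and 72 h libraries. The 24 h curve of monocyte/Mφ-like cells climbs slowly from 208 to 10164 CPM between 10% and 90% of cells, while the naïve curve is steep around its median of 16226 CPM.

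To describe the cells along this spread, monocyte/Mφ-like cells were set into 4 ranges of their own C1q level. These are ranges of a continuous value and not cell types, and 121 of 1547 cells of 24 h lay within 800 to 1250 CPM, around the lowest bound. At 24 h, 37.9% of cells (35.5 to 40.4%) were under 1000 CPM, 32.3% between 1000 and 5000 CPM, 19.3% between 5000 and 10000 CPM and 10.5% (8.99 to 12.1%) over 10000 CPM. At 72 h the share under 1000 CPM was 12.4% (9.79 to 15.3%) and that over 10000 CPM 39.4% (35.4 to 43.5%), and in the naïve library 6.52% and 73.9%. Cells under 1000 CPM summed to 419 CPM of C1q at 24 h and 363 CPM at 72 h. T cell-like cells under the same bound, 95.8% and 93.3% of that class, summed to 228 and 341 CPM.

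Cells under 1000 CPM of C1q at 24 h still carried *C3ar1*. Its level was 287 CPM (269 to 306) in the range under 1000 CPM of C1q, 292 CPM (272 to 313) in the next, 329 CPM (304 to 355) in the third and 362 CPM (328 to 398) in cells over 10000 CPM. From the lowest to the highest range C1q itself went from 419 to 13850 CPM, by construction of the ranges. At 72 h *C3ar1* was at 141 CPM (104 to 187), 180 CPM (144 to 223), 283 CPM (248 to 321) and 361 CPM (330 to 393) in the same ranges. Thus cells over 10000 CPM of C1q had *C3ar1* intervals that overlapped in all 3 libraries, at 373 CPM (311 to 444) in the naïve library, while the intervals of cells under 1000 CPM of C1q did not overlap between 24 h and 72 h.

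Within single clusters of 24 h, *C3ar1* did not always follow these ranges. In Fabp5+ Mo/Mφ-like cells it was at 400 CPM (356 to 447), 357 CPM (317 to 401), 361 CPM (322 to 402) and 404 CPM (348 to 466) from the lowest to the highest range, with overlapping intervals. In Ly6c+ monocyte-like cells it was at 247 CPM (217 to 280), 256 CPM (219 to 299), 409 CPM (342 to 485) and 365 CPM (288 to 457), where the interval of the third range lay above those of the lower ones. At 72 h Cd206+ Mφ-like cells were at 321 CPM (223 to 449), 349 CPM (294 to 412) and 396 CPM (354 to 442) from 1000 CPM of C1q upwards. These intervals overlapped. Timp2+ Mφ-like cells were at 177 CPM (109 to 270), 226 CPM (165 to 303) and 411 CPM (333 to 501). Of the 71 cells of 72 h under 1000 CPM of C1q, 25 were Ly6c+ monocyte-like, with *C3ar1* at 41.3 CPM (15.1 to 89.8). The values pooled over clusters therefore include differences between clusters.

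Other genes of monocytes and Mφs were described along the same ranges at 24 h, pooled over clusters. *Maf*, a transcription factor of Mφs, was at 226, 271, 283 and 288 CPM from the lowest to the highest range. *Csf1r*, the receptor for CSF1, was at 322, 310, 340 and 374 CPM. *Ly6c2*, a monocyte gene, was at 964, 774, 527 and 492 CPM, and *Apoe*, the lipid carrier, at 3955.5, 3752, 5459 and 7080 CPM. The ranges had median depths of 5514.5, 5410, 6685 and 7121 UMIs per cell.

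**Figure D4:**
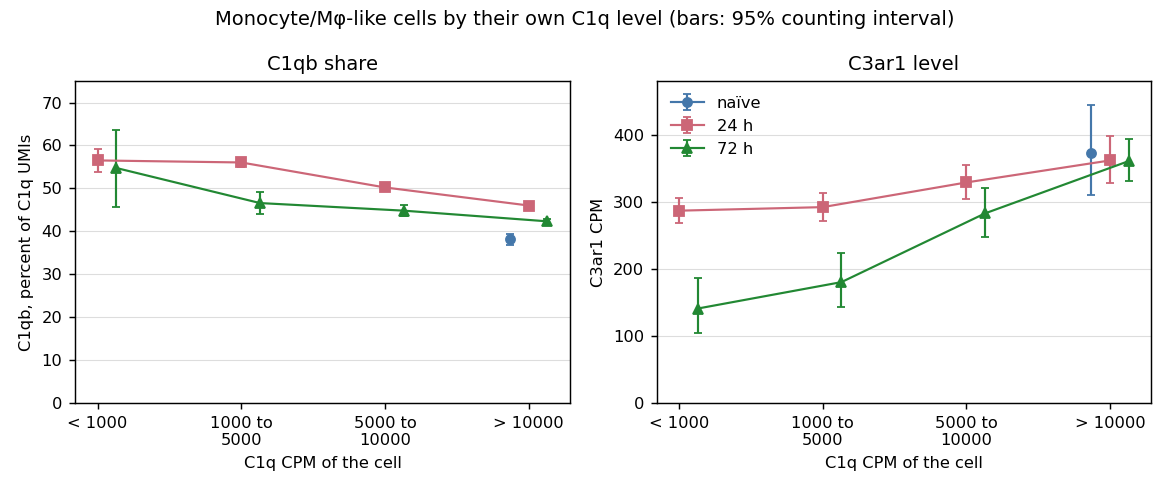
Share of *C1qb* among C1q UMIs (left, percent) and CPM of *C3ar1* (right) in monocyte/Mφ-like cells grouped by the C1q CPM of the cell, for ranges with at least 20 cells, with bars for the 95% counting interval. The *C1qb* share is 56.5% and 46.0% in the lowest and highest range at 24 h, and *C3ar1* goes from 287 to 362 CPM at 24 h and from 141 to 361 CPM at 72 h.

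The chains did not keep 1 ratio. Because 3′ libraries count 1 end of each transcript and capture may differ between genes, only the change of a chain's share between groups is read here. *C1qb* made up 38.6% (37.4 to 39.7%) of the C1q UMIs of monocyte/Mφ-like cells in the naïve library, 49.9% (49.4 to 50.4%) at 24 h and 43.1% (42.5 to 43.6%) at 72 h. *C1qa* made up 36.7%, 29.6% and 33.9%, and *C1qc* 24.7%, 20.6% and 23.0%. The *C1qb* share was therefore highest where C1q was lowest.

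Among clusters of 1 library the order was similar, with an exception. At 24 h the *C1qb* share was 54.3% (49.7 to 58.9%) in the *Cd79a* cluster, 53.9% (52.8 to 55.1%) in Ly6c+ monocyte-like cells, 51.7% (50.4 to 53.1%) in the *Tppp3* cluster, 50.1% (48.0 to 52.1%) in the shallow cluster, 49.0% (48.2 to 49.8%) in Fabp5+ Mo/Mφ-like cells and 47.3% (46.2 to 48.4%) in the *H2-DMb1* cluster. The *Cxcl3* cluster, with the lowest C1q level at 24 h, was at 47.8% (42.1 to 53.5%), outside this order but on 314 UMIs. In the naïve library it was 42.4% (39.8 to 44.9%) in Cd206+ Mφ-like cells and 36.3% (34.8 to 37.7%) in Cx3cr1+ Mφ-like cells. At 72 h it was 46.1% (44.6 to 47.6%) in the *H2-DMb1* cluster, 43.7% (42.4 to 44.9%) in Timp2+ and 42.3% (41.6 to 43.1%) in Cd206+ Mφ-like cells, the last overlapping its naïve interval.

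Within the 24 h library the *C1qb* share was 56.5% (53.8 to 59.2%) in cells under 1000 CPM of C1q, 56.0% (54.9 to 57.2%) and 50.2% (49.4 to 51.1%) in the middle ranges and 46.0% (45.3 to 46.8%) over 10000 CPM. At 72 h it was 54.8% (45.7 to 63.6%), 46.6% (44.0 to 49.2%), 44.8% (43.6 to 46.1%) and 42.3% (41.7 to 43.0%). These values are pooled over clusters. At 24 h it was 58.2%, 55.3%, 49.0% and 45.9% in Fabp5+ Mo/Mφ-like cells, but 54.8%, 61.4%, 55.4% and 48.6% in Ly6c+ monocyte-like cells. From 1000 CPM upwards at 72 h, Cd206+ Mφ-like cells had 39.2%, 43.4% and 42.2%. Timp2+ Mφ-like cells had 46.1%, 42.1% and 44.0%. Within each of these clusters of 72 h the intervals overlapped. In the gauge, T cell-like cells had *C1qb* shares of 49.1% (35.1 to 63.2%) at 24 h and 45.1% (37.7 to 52.6%) at 72 h. Cells over 10000 CPM still differed between the libraries, with 38.1% (36.9 to 39.3%) in the naïve library.

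DC-like cells held less C1q than monocyte/Mφ-like cells, but more than B and T cell-like cells at 24 h and 72 h. Their level was 210 CPM (122 to 336) in 22 naïve cells, 591 CPM (539 to 647) in 118 cells at 24 h and 2029 CPM (1939 to 2121) in 137 cells at 72 h. At 72 h the median DC-like cell had 4 C1q UMIs and 42.3% had 5 or more, against 1 UMI and 2.22% in T cell-like cells, at median depths of 6459 and 2704 UMIs. After thinning to 1000 UMIs, 55.1% of DC-like and 28.1% of T cell-like cells had a C1q UMI (90.5% and 71.1% before). Of these cells 112 were in the cluster marked by *Cd209a*, at 2489.5 CPM, and the other DC-like clusters had too few cells to compare. The tenth of DC-like cells with the most C1q held 56.5% of the C1q UMIs of the class.

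Mφ markers were also present in DC-like cells. The 10 markers of the monocyte/Mφ list summed to 6850, 3876 and 5252 CPM in DC-like cells of the naïve, 24 h and 72 h libraries, against 16394, 16559 and 20570 CPM in monocyte/Mφ-like cells and 292, 1877 and 1219 CPM in T cell-like cells, with *Chil3* at 0 in naïve DC-like cells. Their part in the C1q level was not tested. *C3ar1* was at 12.3, 39.4 and 35.6 CPM in DC-like cells, and at 72 h this interval (24.7 to 49.8 CPM) overlapped that of B cell-like cells.

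Of *C3ar1* transcripts, few were seen per cell. A *C3ar1* UMI was found in 53.6% (44.9 to 62.1%) of naïve, 69.4% (67.1 to 71.7%) of 24 h and 63.4% (59.3 to 67.4%) of 72 h monocyte/Mφ-like cells, with at most 18 UMIs in a cell. Thinned to 1000 UMIs these shares were 28.4% (20.9 to 36.8%), 25.6% (23.4 to 27.9%) and 23.7% (20.2 to 27.4%), and in T cell-like cells 0%, 1.43% and 0%. Before thinning the shares differed as the depths did, and after it the intervals overlapped.

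Of 50 listed complement genes 33 were in the tables, and 16 reached 50 CPM in monocyte/Mφ-like cells of the libraries compared, 12 without the 4 described here. For 24 h over naïve, 1 of the 12 was at least 2-fold higher, *C3*, the central component (28.4 to 62.8 CPM), and 2 were lower, among them *C4b*, a component of the classical pathway (50.8 to 11.6 CPM), where 11.5% of all genes tested were higher and 8.42% lower. The median log2 ratio was 0.48 over these 12 genes, without the 4 described here, and 0.23 over all genes tested. For 72 h over 24 h, 2 of the 12 were at least 2-fold higher, among them *Fcna*, a ficolin of the lectin pathway (1.22 to 78.2 CPM), and 1 was lower, *Calr*, a chaperone that can bind C1q (916 to 375 CPM), where 3.68% of all genes were higher and 4.87% lower. The medians were -0.17 for the 12 genes and -0.19 for all genes.

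For 72 h over naïve, *Cfp*, properdin, which stabilizes the alternative pathway convertase, was the 1 gene of the 12 past 2-fold (274 to 577 CPM), and 0 were lower, where 2.31% and 4.06% of all genes were. These counts of 1 or 2 genes are too small to set apart from the shares over all genes. The receptor for the other anaphylatoxin, *C5ar1*, was at 309, 409 and 355 CPM in naïve, 24 h and 72 h monocyte/Mφ-like cells, under 2-fold in each comparison like *C3ar1*. *Itgam*, a chain of complement receptor 3, was at 199, 246 and 332 CPM, and *Cd93* at 93.4, 131 and 112 CPM.

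Among the genes most like C1q across 27 groups of cells, by Pearson's correlation of log2 CPM with a pseudocount of 10 CPM over 3295 genes, were *Apoe* (r = 0.92), *Mrc1* (0.91), *Selenop* (0.91) and *C3ar1* (0.90), and further down *Itgb5*, *Stab1*, *Ms4a7*, *Adgre1* and *Lgmn*. Among those most like *C3ar1* were *C1qb* (r = 0.94), *Ctsc*, *Acp2*, *Gas7*, *Itgb5*, *Cltc*, *Lamp1*, *Rgl1* and *F13a1*. These groups share libraries and free RNA, and include classes that hold neither gene, so the values describe a division between Mφs and other cells. Of the listed genes, *Csf1r* gave 0.86 with C1q and *Maf* 0.71, while *Spi1*, which encodes PU.1, gave 0.34, *Irf8* 0.25, *Cebpb* 0.27, *Ccr2* 0.50 and *Ly6c2* -0.12.

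Some of these genes differed between the libraries in monocyte/Mφ-like cells and others did not differ beyond counting error. *Maf* was at 236, 260 and 292 CPM in the naïve, 24 h and 72 h libraries (ratio of 24 h over naïve 1.10, 0.916 to 1.34). *Csf1r* was at 835, 329 and 672 CPM (ratio 0.394, 0.355 to 0.438) and *Apoe* at 28989, 4626 and 23950 CPM (ratio 0.160, 0.157 to 0.163), with the same order as C1q. *Cebpb*, a factor of inflammatory myeloid cells, was 2.10 times the naïve level at 24 h (1.89 to 2.35).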

How the data were processed

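The deposited values are raw UMI counts per gene and cell, which the authors made from 10x 3′ libraries with Cell Ranger 3.0.2 on GRCm38/mm10, removing cells under 200 genes or over 10% of UMIs from mitochondria. They were not normalized, and no further filter was applied. Total UMIs were 1865221, 10542346 and 5246731 in the naïve, 24 h and 72 h libraries.

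Cells were clustered together with Seurat 5.3.0 in R 4.3.3 (2000 variable genes without the complement list, 30 principal components, 20 for monocytes/Mφs, 20 neighbours, resolution 0.8, seed 0), with no correction between libraries. A cluster was named where at least 3 markers were detected in 10% of cells and were 2-fold above the other cells. Among all cells, a cluster not named so was compared again with only the cells named as another class. This repeat named the monocyte/Mφ-like clusters of 627, 451, 332 and 148 cells. A cluster with a median depth far below that of its libraries, and no marker of its name among its leading genes, was left unnamed. So was one whose leading genes held more markers of another name than of its own, or as many in the clustering of all cells. This last part was added after the clusters were seen, as were the C1q ranges and the split of the B cell gauge. The 4 genes, the lists and the markers were chosen with earlier results of these data known. Genes were named by list, by at least 50 CPM for complement genes, and as the 10 most alike. Some genes that these rules name are not reported here.

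CPM of summed UMIs carry exact Poisson intervals, ratios exact conditional Poisson intervals and shares Clopper-Pearson intervals (95%, scipy 1.17.1, numpy 2.4.6, pandas 2.3.3). Groups under 20 cells were not compared. On simulated Poisson counts for 24 h over naïve, 95.7% of 2463 intervals held the true ratio. This checked the calculation only, because the simulated counts carried no spread between cells or mice. Doublets were kept. Scrublet (scanpy 1.11.5) called 16 cells (3, 5 and 8 in the naïve, 24 h and 72 h libraries), under 0.5% of the cells, so that it cannot be taken to have found them. Figures were drawn with matplotlib 3.10.9.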

Additional observations from a re-analysis of the deposited data

Results flagged for a closer look

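The C1q level moved in opposite directions between 24 h and 72 h in different monocyte/Mφ-like clusters. The ratio of 72 h over 24 h was 0.243 in Ly6c+ monocyte-like cells, against 1.54 in the *H2-DMb1* cluster and 1.30 in the *Cxcl3* cluster. With 1 library at each time point the difference between clusters was not tested, and the 72 h value of Ly6c+ monocyte-like cells rests on 27 cells. The *Cxcl3* ratio rests on 39 and 22 cells. In these, the tenth of cells with the most C1q held 42.4% of C1q UMIs at 24 h and 38.0% at 72 h. At resolution 1.2 most Ly6c+ monocyte-like cells of 24 h were in a cluster of 266 cells of 24 h and 2 of 72 h, apart from a cluster of 46 and 26 cells, and with 15 and 10 principal components the Ly6c+ cluster held 312 and 2 cells.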

How the results depend on the processing

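No paired analysis was possible because each time point has 1 library and no result comes from a test across samples. For 35 results, 365 values under other settings were computed. The 24 h over naïve ratio of *C3ar1*, whose interval includes 1, moved from 0.976 to 1.001 with 15 and 10 principal components, and no other ratio crossed 1. Of the 11 main results 92 values stayed within the counting interval and 26 did not, and of the other 24 results 200 stayed and 47 did not. The cause was not tested unless the setting itself gives it. Subtraction of T cell levels, leaving out the 55 cells of highest doublet score, leaving out the *Cd79a* cluster and leaving out B and T cells with 5 or more C1q UMIs were chosen after seeing the data.

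The C1q ratio of 24 h over naïve in monocyte/Mφ-like cells was 0.246 as a mean over cells, 0.293 with B cell and 0.287 with T cell levels subtracted. That of 72 h over 24 h was 2.44 once cells under 500 genes or over 5% of UMIs from mitochondria were dropped, 2.26 with 15 and 10 principal components, and 2.22 and 2.39 after B and T cell subtraction. That of 72 h over naïve was 0.581 as a mean over cells, and 0.651 and 0.687 after subtraction. The *C3ar1* ratio of 72 h over 24 h was 0.846 after B cell subtraction. The B cell levels subtracted include the B cell-like cells of 5 or more C1q UMIs. The B cell level, as a percent of monocyte/Mφ-like cells, was in the naïve library 4.80% with the stricter filter, 0.975% at resolution 0.5, 2.66% as a mean over cells and 0.384% without cells of 5 or more C1q UMIs. It was 12.6% as a mean over cells at 24 h, and at 72 h 7.28% at resolution 0.5, 15.9% with fewer components, 11.7% as a mean and 2.96% without those cells. Naïve Cx3cr1+ over 24 h Ly6c+ cells gave 6.87 at resolution 0.5, 6.48 at 1.2, 5.12 with fewer components, 6.87 as a mean over cells, and 6.58 and 6.57 after B and T cell subtraction. Single clusters of under 50 cells and *C3ar1* outside monocyte/Mφ-like cells are limited by few UMIs.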

Other observations

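Receptors and regulators of complement divided the other cell classes. *C5ar1*, the C5a receptor, was at 1147 CPM in neutrophil-like cells at 24 h and 1114 CPM at 72 h, above the 409 CPM of monocyte/Mφ-like cells at 24 h. *Cfp* was at 694 CPM in DC-like cells at 24 h, 670 CPM at 72 h and 629 CPM in the naïve library, and its intervals overlapped among the 3. *Cr2*, complement receptor 2 of B cells, was at 124 CPM in naïve and 102 CPM in 24 h B cell-like cells, and *Cd55*, which protects cells from complement, at 93.8 CPM in naïve B cell-like cells. *C3* was at 107 CPM in neutrophil-like cells at 24 h and 141 CPM at 72 h, against 62.8 and 43.2 CPM in monocyte/Mφ-like cells.

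Among monocyte/Mφ-like clusters, Timp2+ Mφ-like cells of 72 h held *Fcna*, which also leads their cluster, at 271 CPM (232 to 315), against 38.2 CPM (28.5 to 50.3) in Cd206+ Mφ-like cells of the same library. *C4b* was at 111 CPM (86.1 to 140.0) and 46.5 CPM (35.6 to 59.6) in the same clusters. *Itgam* was at 765 CPM (698 to 837) in Timp2+ Mφ-like cells. These values describe 1 library.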
